A study of Rattus norvegicus with 4 samples.

Results

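The genes described here are 10 markers of adult neurogenesis and neurite growth: doublecortin (Dcx), Neurod1, Sox11, calretinin (Calb2), nestin (Nes), Ncam1, Gap43, stathmin (Stmn1), Map2 and tau (Mapt). They were chosen by name. The rat whole-genome oligo array carried 14 probes whose accession resolved to these symbols, out of 10768 probes for 8899 genes that could be named, so all 10 genes were measured, 6 of them with 1 probe and 4 (Nes, Stmn1, Map2 and Mapt) with 2. Where a gene had 2 probes, probe 1 is the one with the higher mean signal, and it stands for the gene in counts of genes.

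The samples were hippocampi of male Wistar rats, aged 10 weeks when they were allocated to standard cages (sedentary, 10 rats), to a wheel without resistance (WR, 8 rats) or to a wheel with resistance (RWR, 8 rats). Running was voluntary for 4 weeks, with the wheel open 24 h per day. The load on the RWR wheel was 4.5 g in the first week and then rose step by step to 30% of body weight. The animals were killed on the day after the last running day, so the values describe that time only. RNA of replicates was pooled within each group before labelling. The RNA amounts in the methods imply that a pool held fewer replicates than its group held rats. Which rats these were, and whether the sedentary RNA of the WR and RWR chips was 1 pool, is not stated in the sources used here. The WR pool was hybridised with sedentary RNA on chips 1 and 2, and the RWR pool on chips 3 and 4. The running pool was in Cy5 on chips 1 and 3 and in Cy3 on chips 2 and 4. Since a pair of chips repeats 1 pool with the dyes swapped, each comparison had 1 biological replicate and no test between groups was possible. Every error below is the SD over 2 chips, over 2 differences between chips where RWR is set against WR, or over spots where stated. None is an error across rats.

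New granule neurons are made throughout life in the dentate gyrus. Radial glia-like stem cells and progenitors there express nestin, an intermediate filament protein, and their daughters pass through a stage marked by the transcription factors Neurod1 and Sox11, by the microtubule-binding protein doublecortin, by the adhesion molecule Ncam1 in its polysialylated form and, briefly, by the calcium-binding protein calretinin. Axons and dendrites then grow out with Gap43 at the growth cone, stathmin as a regulator of free tubulin, Map2 on dendritic and tau on axonal microtubules. Several of these genes are not specific for immature cells in adult hippocampus: Gap43, stathmin, Map2, tau and Ncam1 are also made by mature neurons, calretinin by interneurons and mossy cells, and nestin by some cells of blood vessels.

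None of the 10 genes was called in either running group, and the differences were small. A call required, on each chip of the pair, a ratio over 1.5-fold or under 0.75-fold and an error-model p-value of the scanner software under 0.01. This rule called 0.0317% of all probes in Sed × WR (0.00244% higher and 0.0293% lower) and 0.0585% in Sed × RWR (0.00975% higher and 0.0488% lower). At such shares a count of 0 in 10 says nothing particular about the markers. The fold cutoff alone was passed by 0.549% of all probes in WR (0.212% higher, 0.337% lower) and 1.48% in RWR (0.0878% higher, 1.39% lower), and by 0 of the 14 marker probes in both. The pair means on the log2 scale (running over sedentary) lay between -0.13 and 0.10 in WR and between -0.22 and 0.16 in RWR. The difference farthest from 0, that of Stmn1 probe 2 in RWR, put its mean 14.3% below sedentary. The median over the 10 genes was -0.0062 in WR and 0.0086 in RWR, beside 0.0049 and -0.0019 over all probes. In whole tissue, a lower value of a marker can mean fewer cells of its type or less of its RNA per cell, and these cannot be told apart here.

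**Figure D1:**
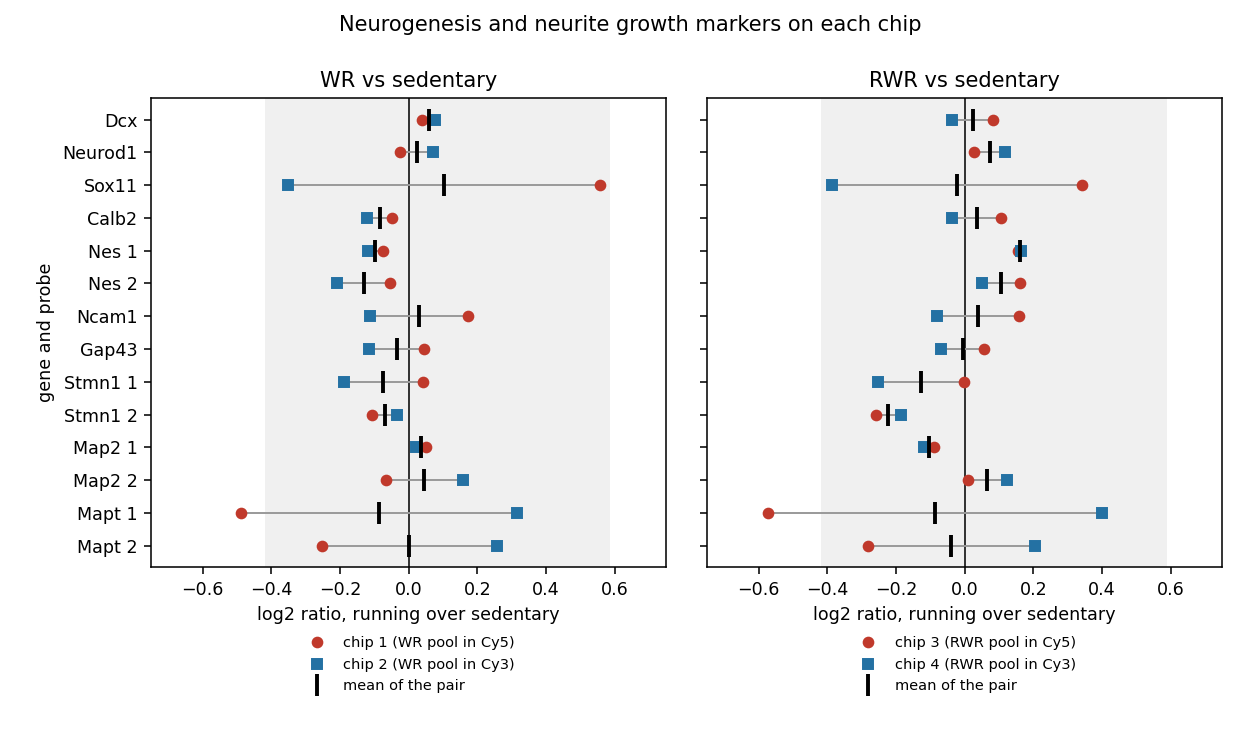
Log2 ratio of running over sedentary for the 14 marker probes on each chip, with WR on the left and RWR on the right. Circles are chips with the running pool in Cy5, squares chips with it in Cy3, black bars the mean of the pair, and the grey band the range between 0.75-fold and 1.5-fold. Every pair mean lies inside the band, and the widest separation of the chips is that of Sox11 and of Mapt probe 1.

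A looser criterion was that the log2 ratios of a pair lay on the same side of 0 with the dyes swapped. In WR this held for 4 of the 10 genes at probe 1: Dcx and Map2 were higher and Calb2 and Nes lower. Over all probes the share was 22.4% (11.6% higher, 10.7% lower), and it was 28.2% (14.4% and 13.8%) over the 25495 probes whose signals were well above background in each dye. In RWR it also held for 4 genes, with Neurod1 and Nes higher and Stmn1 and Map2 lower, beside 27.2% of all probes (12.4% higher, 14.8% lower) and 32.0% (16.6% and 15.4%) of the 26924 probes well above background. Such values were thus frequent on these chips. Of the 28 marker values (14 probes in 2 comparisons), 11 had a mean larger than the SD of their chips. At probe 1 this held for 4 of the 10 genes in WR and 3 in RWR. It was a property of 20.8% of the probes well above background in WR and 23.6% in RWR. It can occur only where both chips lie on the same side of 0, so it is not separate from the counts above.

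Nestin lay on the same side of 0 at both probes in each comparison, lower in WR and higher in RWR. Probe 1 of Nes (A_44_P1020422) gave signals of 671 for the sedentary pool and 637 for the WR pool on chip 1, and of 593 and 546 on chip 2. On the RWR chips the order was the other way, with 707 for sedentary and 787 for RWR on chip 3, and 608 and 682 on chip 4. The WR pool was thus below the sedentary pool on both chips and the RWR pool above it on both. The log2 ratios were -0.08 and -0.12 in WR, with a mean of -0.10 ± 0.03 (SD, n = 2 chips), and 0.16 and 0.17 in RWR, with a mean of 0.16 ± 0.0067. Probe 2 (A_44_P1020428) was dim, with signals between 54.7 and 82.7, but well above background in both pools on all chips. It took the same sides, with a mean of -0.13 ± 0.11 in WR and 0.11 ± 0.08 in RWR. Among probes well above background, 3.74% lay above 0 on both RWR chips with a mean at least as large as that of Nes probe 1. In WR, 5.99% lay below 0 on both chips with a mean at least as low. Other background corrections moved the RWR mean of probe 1 to 0.10 (normexp) and 0.10 (none), and that of probe 2 from 0.11 to 0.04 with both, where without correction its chips no longer lay on one side. In WR they moved probe 2 from -0.13 to -0.038 (normexp) and -0.043 (none).

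Stathmin was lower in RWR at both probes. Probe 2 of Stmn1 (A_44_P401165) gave 3708 for the sedentary pool and 3099 for the RWR pool on chip 3, and 3213 and 2822 on chip 4. In WR the signals were 2556 and 2375 on chip 1, and 2902 and 2834 on chip 2. The running pool was the lower on all 4 chips, with a mean log2 ratio of -0.22 ± 0.05 in RWR and of -0.07 ± 0.05 in WR. This RWR value was the farthest from 0 of the 28. Of the probes well above background, 1.52% lay below 0 on both chips with a mean at least as low. Probe 1 (A_43_P11845), which was brighter, separated the pools less clearly: sedentary and RWR signals were 13661 and 13630 on chip 3 and 13201 and 11076 on chip 4. Its mean in RWR was -0.13 ± 0.18, which rested almost wholly on chip 4 (-0.25, against -0.0033 on chip 3). In WR its chips went opposite ways, with 0.04 and -0.19. The lower value of stathmin in RWR was thus larger than the SD of the chips at 1 of its 2 probes. Of 6 oligodendrocyte markers, 2 were lower, 0 higher and 4 split on the RWR chips, beside 15.4% lower among all probes well above background, and 0 were called. The count in WR was the same. Their summed signal was 78571 and 63899 for sedentary against 70550 and 58458 for RWR. Their part in the stathmin values was not tested.

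The 250 bases before the RefSeq start are printed for these 2 genes, as the markers on which the results turn and whose probes agreed in RWR; the sequences are those of RefSeq on the GRCr8 assembly, read 5′ to 3′ on the strand of the gene. Capitals mark each E-box, written CANNTG with any middle bases and the same on both strands, which is the general site of basic helix-loop-helix factors. The Nes window is chr2:175736338-175736587 on the plus strand and the Stmn1 window chr5:151964929-151965178 on the plus strand.
Nes: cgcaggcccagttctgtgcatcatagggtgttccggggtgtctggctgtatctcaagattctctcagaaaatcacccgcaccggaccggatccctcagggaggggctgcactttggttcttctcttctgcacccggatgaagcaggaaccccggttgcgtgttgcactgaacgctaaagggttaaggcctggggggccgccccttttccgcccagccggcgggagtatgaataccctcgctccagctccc
Stmn1: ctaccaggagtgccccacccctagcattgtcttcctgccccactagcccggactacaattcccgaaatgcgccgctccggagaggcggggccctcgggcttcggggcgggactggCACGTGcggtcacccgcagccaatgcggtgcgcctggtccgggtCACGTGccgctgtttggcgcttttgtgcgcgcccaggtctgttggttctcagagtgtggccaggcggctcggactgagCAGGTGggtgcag
The Nes window held 0 E-boxes and that of Stmn1 held 3. An E-box was present in 65.5% of 33465 promoter windows of this length. The GC box GGGCGG, counted on both strands, occurred 2 times in the Nes window and 1 time in that of Stmn1, and in 30.5% of all windows. Promoter windows were given for 6 of the 10 markers, of which 4 (Neurod1, Sox11, Stmn1 and Map2) held an E-box and the windows of Dcx and Nes did not. A match of letters is a description of the sequence, and the chips measured transcripts, not binding.

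**Figure D2:**
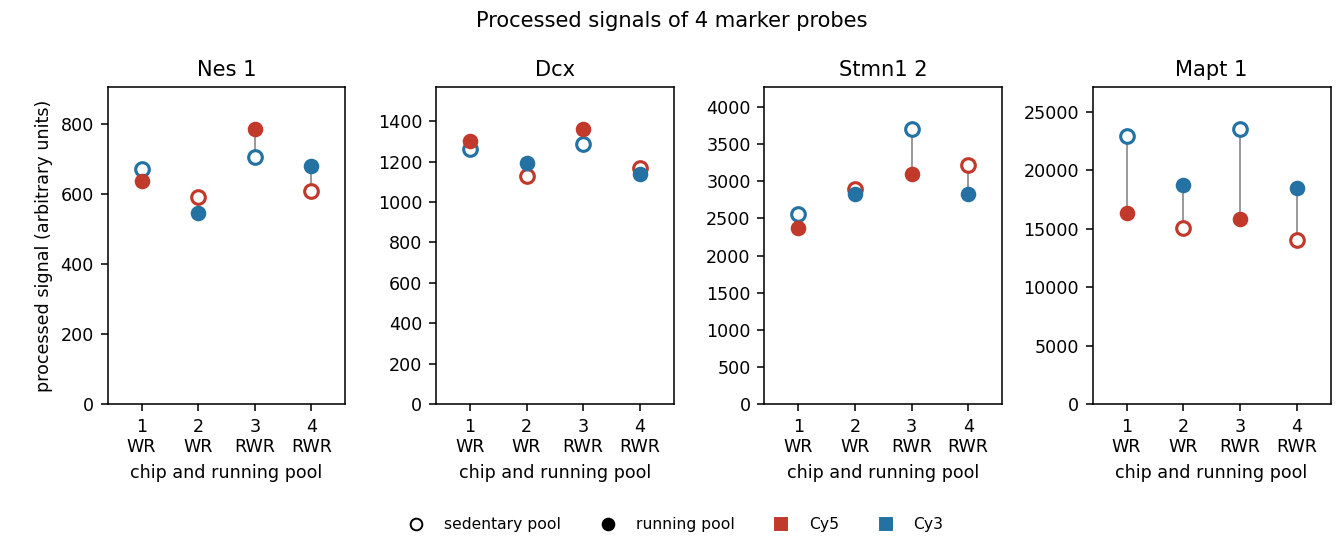
Processed signal of 4 marker probes on each chip, in the arbitrary units of the scanner, on axes that start at 0. Open circles are the sedentary pool, filled circles the running pool of the chip, red is Cy5 and blue is Cy3. The RWR pool lies above the sedentary pool on chips 3 and 4 at Nes probe 1 and below it at Stmn1 probe 2, whereas at Mapt probe 1 the Cy3 circle is the upper one on all 4 chips.

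The pair means of Dcx and Neurod1, markers of young neurons, lay close to the sedentary level. The Dcx probe (A_44_P129412) gave 1264 for the sedentary and 1299 for the WR pool on chip 1, and 1128 and 1190 on chip 2. WR was thus slightly above sedentary on both chips, with a mean log2 ratio of 0.06 ± 0.03. Of the probes well above background, 10.0% lay above 0 on both chips with a mean at least as high. In RWR its chips split, with 1287 and 1363 on chip 3 and 1168 and 1139 on chip 4, and the mean was 0.02 ± 0.08. For Neurod1 (A_44_P226575) the order was the reverse: the chips split in WR (-0.03 and 0.07, mean 0.02 ± 0.07), and in RWR both were above 0 (0.03 and 0.12, mean 0.07 ± 0.06). The sedentary and RWR signals of Neurod1 were 1706 and 1739 on chip 3, and 1395 and 1513 on chip 4.

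Calretinin (Calb2, A_42_P698310) was lower in WR on both chips, with 1561 and 1511 for sedentary and WR on chip 1 and 1375 and 1264 on chip 2. The mean was -0.08 ± 0.05 in WR, and 0.03 ± 0.10 in RWR, where the chips split. Sox11 (A_44_P545498), a SoxC factor of early neurons, was the dimmest marker, with signals between 26.2 and 55.4, and the sedentary pool was not well above background on chip 1. Its log2 ratios were 0.56 on chip 1 and -0.35 on chip 2, and 0.34 and -0.39 on chips 3 and 4. The means, 0.10 ± 0.64 in WR and -0.02 ± 0.51 in RWR, were far smaller than these SDs. A dye difference enters such an SD but cancels in the mean. The SD therefore cannot show whether Sox11 differed, and at these dim signals no difference is claimed.

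The adhesion and growth cone genes were measured with many spots, which gives their precision on a single chip. The probes of Ncam1 (A_44_P288231) and Gap43 (A_42_P833045) and probe 2 of Map2 (A_44_P111897) had 10 spots each, of which 8 to 10 were used per chip, and the SD of the log2 ratio over spots was between 0.018 and 0.048. The chips of a pair differed by more than that. Ncam1 had 0.17 and -0.11 in WR and 0.16 and -0.08 in RWR, with means of 0.03 ± 0.20 and 0.04 ± 0.17. Gap43 had 0.04 and -0.12 in WR and 0.06 and -0.07 in RWR, with means of -0.04 ± 0.11 and -0.0058 ± 0.09. For both genes the pool in Cy5 read higher on every chip, whichever pool it was. Neither gene differed from sedentary by more than the SD of the chips, an SD that here follows the dye.

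Tau followed the dye too, in the opposite sense. Probe 1 of Mapt (A_44_P550237) gave 22891 for the sedentary pool and 16325 for the WR pool on chip 1, but 15065 and 18734 on chip 2. On chip 3 it gave 23546 for sedentary and 15818 for RWR, and on chip 4 it gave 14020 and 18503. The Cy3 signal was the higher on all 4 chips. The log2 ratios of -0.49 and 0.31 in WR and of -0.57 and 0.40 in RWR left means of -0.09 ± 0.57 and -0.09 ± 0.69. Averaged over a pair with no turn for the swap, the log2 ratio of Cy5 over Cy3 was -0.40 in WR and -0.49 in RWR. On chip 3 the error-model p-value was 0.0064, the lowest of all marker values, and on that chip alone Mapt would have met the call rule. Probe 2 (A_44_P309013) behaved alike, with -0.25 and 0.26 in WR and -0.28 and 0.20 in RWR.

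**Figure D3:**
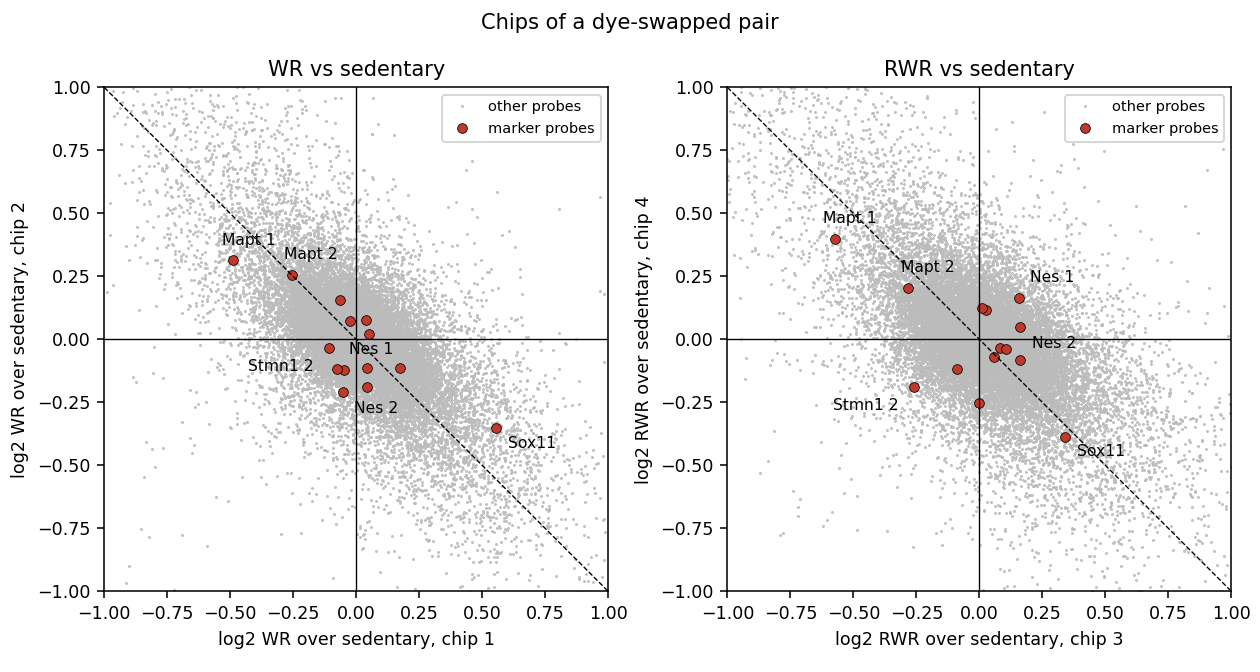
Log2 ratio of running over sedentary on the Cy5 chip (horizontal) against the Cy3 chip (vertical) of each pair, for probes whose signals were well above background in each dye (grey, within the plotted range from -1 to 1) and the 14 marker probes (red). The dashed line is where a ratio follows the dye alone. Mapt and Sox11 lie at opposite ends along it. In RWR, Nes and Stmn1 probe 2 lie farther off the line than Mapt and Sox11 do. In WR, Sox11 and Mapt probe 1 lie farther off the line than Stmn1 probe 2 does.

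This pattern was that of the chips as a whole. Over all probes the ratios of the 2 chips of a pair had a Pearson's r of -0.761 in WR and -0.686 in RWR, a description over probes, which are not replicates. The median size of the dye-following part over the 10 genes was 0.06 in WR and 0.07 in RWR, about the same as the median size of their pair means (0.07 and 0.06). Over all probes the dye-following part was the larger, with medians of 0.17 in WR and 0.16 in RWR against 0.08 and 0.08 for the pair means. Most markers were well above background. Over such probes the medians were 0.106 in WR and 0.104 in RWR, against 0.052 and 0.059 for the pair means. The r over these probes was -0.685 in WR and -0.629 in RWR. A constant dye difference cancels in the mean of a pair, but it enters the SD. A mean smaller than its SD therefore does not show that a gene was unchanged.

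The microtubule-associated protein Map2 gave different answers at its probes. At probe 1 (A_44_P243134) the sedentary and WR signals were 1275 and 1321 on chip 1 and 1213 and 1230 on chip 2, and the sedentary and RWR signals 1385 and 1302 on chip 3 and 1098 and 1011 on chip 4. It was slightly higher in WR (0.04 ± 0.02) and lower in RWR (-0.10 ± 0.02). With normexp or no background correction the chips split in both comparisons, and the RWR mean was -0.057 and -0.055. At probe 2, with 10 spots, the WR chips split (0.05 ± 0.16) and the RWR chips were both above 0 (0.07 ± 0.08). The probes of Map2 thus took opposite sides in RWR, the 1 such case among the 4 genes with 2 probes, and no direction can be given for the gene. Both probes lay on the same side on both chips for 1 of these 4 genes in WR (Nes) and for 2 in RWR (Nes and Stmn1).

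To set RWR against WR, the ratios of chips with the same dye orientation were subtracted (chip 3 minus chip 1, and chip 4 minus chip 2), in which a constant dye difference drops out. Nes was higher in RWR than in WR by 0.23 and 0.28 at probe 1, a mean of 0.26 ± 0.04 on the log2 scale or 1.20-fold, and by 0.21 and 0.26 at probe 2, a mean of 0.24 ± 0.03. The mean at probe 2 was 0.080 with normexp and 0.086 with no background correction, and that at probe 1 was 0.19 and 0.18. Calb2 was also higher in RWR in both orientations, by 0.12 ± 0.05, and Neurod1 by 0.05 ± 0.0064. Relative to sedentary, Stmn1 was lower in RWR by 0.15 in both orientations at probe 2 and by 0.04 and 0.06 at probe 1. The mean at probe 2 was -0.0996 with normexp and -0.092 with no correction. At this probe the WR and RWR pools read 2375 and 3099 in Cy5, and 2834 and 2822 in Cy3. The sedentary signals beside them were 2556 and 3708, and 2902 and 3213. As read, the RWR signal was thus not clearly below the WR signal, while the sedentary signal was higher on the RWR chips. These signals were not scaled between chips, and the RWR chips were brighter in general. The median sedentary signal over spots was 66.7 and 66.4 on chips 1 and 2, and 74.6 and 71.9 on chips 3 and 4. The median running signal was 71.4 and 62.2, and 78.3 and 69.3. Map2 was lower by 0.14 in both orientations at probe 1 and split at probe 2 (0.07 and -0.04). Sox11 was at -0.12 ± 0.13, Mapt probe 2 at -0.04 ± 0.02 and Gap43 at 0.03 ± 0.02, each on the same side in both orientations. The difference of Sox11 turned to 0.13 with normexp and 0.039 with no correction, and that of Neurod1 was 0.075 and 0.083. Dcx, Ncam1 and Mapt probe 1 also split, with means of -0.04, 0.0094 and -0.00021. In all, 3 probes lay on one side of 0 on both WR chips and on the other on both RWR chips. They were both of Nes and probe 1 of Map2, thus 2 of the 10 genes, beside 4.62% of the probes well above background on all chips. Map2 probe 1 lost this property with normexp or no background correction, and Nes probe 2 with no correction. Of the 14 probes, 5 were higher in RWR in both orientations, 5 lower and 4 split.

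**Figure D4:**
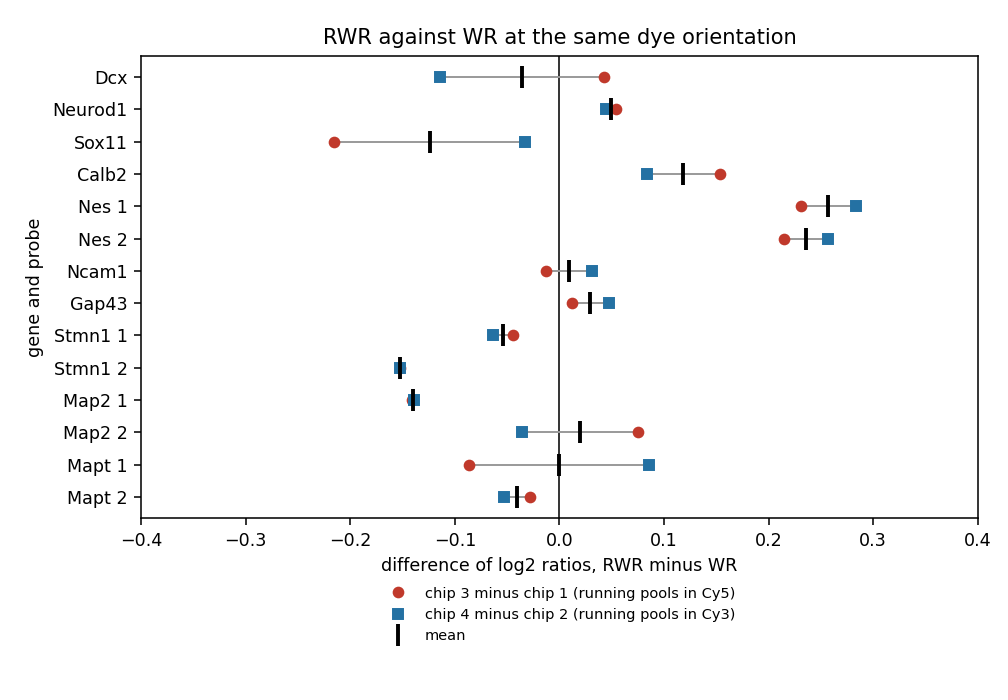
Difference of the log2 ratios of RWR and WR against sedentary for the 14 marker probes, from the chips with the running pool in Cy5 (circles) and in Cy3 (squares), with the mean as a black bar. Both Nes probes lie between 0.21 and 0.28, and Stmn1 probe 2 and Map2 probe 1 lie near -0.15 and -0.14 in both orientations.

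Over the 24955 probes well above background on all chips, 57.0% lay on the same side in both orientations, 28.1% higher and 28.9% lower. Those with a mean at least as high as that of Nes made up 2.35% (probe 1) and 2.88% (probe 2). Those with a mean at least as low as that of Stmn1 probe 2 made up 6.86%. The correlation of the differences across these probes was weak (Pearson's r of 0.0757), a description over probes. Each difference also holds any difference between the sedentary RNA of the WR and RWR chips, and no error across rats can be given.

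A wider list of 94 genes of the same biology held progenitor genes, genes of immature neurons, neurite cytoskeleton genes and genes of axon guidance and growth inhibition, of which 56 had a named probe. None of the 56 was called in WR or RWR. Of the 52 well above background in WR, 7 were higher and 8 lower on both chips (28.8%, beside 28.2% over all such probes). Of the 53 in RWR, 7 were higher and 8 lower (28.3%, beside 32.0%). The median over the 56 was 0.03 in WR and -0.0054 in RWR.

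Among progenitor genes, Hes1, a Notch target, was higher on both chips in WR (0.11 ± 0.07) and RWR (0.16 ± 0.14). Pax6, a transcription factor of neural progenitors, was lower in WR (-0.14 ± 0.02). In RWR, Hes5 (-0.10 ± 0.07) and Id1 (-0.07 ± 0.01) were lower. Of 10 progenitor genes well above background in WR, 1 was higher and 2 lower, and of 11 in RWR, 1 was higher and 3 lower. Among all probes well above background, 28.2% lay on one side in WR and 32.0% in RWR.

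Of 10 genes of immature neurons, 3 were higher and 3 lower in WR, and 2 higher and 1 lower in RWR. The share on one side among all probes well above background was 28.2% in WR and 32.0% in RWR. Elavl4, a neuronal RNA-binding protein, was lower in WR (-0.10 ± 0.03) and RWR (-0.08 ± 0.0095), and Cd24 lower in WR (-0.17 ± 0.05). Neurod2 was higher in both (0.07 ± 0.04 and 0.04 ± 0.05). Tubb3, the neuronal β-tubulin, was lower in WR by a mean of -0.05 ± 0.03.

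Of 21 cytoskeleton and adhesion genes, 1 was higher and 1 lower in WR, and 3 were higher and 3 lower in RWR. Beside these counts, 28.2% in WR and 32.0% in RWR of all probes well above background lay on one side. Kif5a, a kinesin of axonal transport, was lower in RWR on both chips (-0.11 ± 0.0022), and Ina, a neuronal intermediate filament, was at 0.06 ± 0.03 in RWR and -0.02 ± 0.03 in WR. Of the guidance genes, Robo1, a Slit receptor, was higher in WR (0.22 ± 0.19) and RWR (0.23 ± 0.04), Sema3a lower in WR (-0.11 ± 0.02) and Nrp1 lower in RWR (-0.04 ± 0.02). Slit2 passed the fold cutoff without the p-value in RWR, but it was not well above background in both dyes, so its ratio is not given as a change.

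A signal well above background was frequent (25495 of 41008 probes in WR and 26924 of 41007 in RWR), so it cannot show which brain region was taken. Such signals were found on all chips for 8 of 8 hippocampal neuron genes (among them Camk2a, Slc17a7 and Nrgn). The same held for 6 of 6 astrocyte, 6 of 6 oligodendrocyte and 6 of 6 microglia genes. Their median log2 ratios were 0.06 in WR and 0.04 in RWR for neurons, 0.0075 and 0.0031 for astrocytes, -0.07 and -0.08 for oligodendrocytes and 0.04 and 0.06 for microglia. Of 5 choroid plexus genes, 2 were well above background in WR, both lower there, and the summed signal of the 5 was 603 and 615 in the sedentary channel of chips 1 and 2 against 402 and 347 in the WR channel, and 709 and 651 against 785 and 682 in RWR, with Kl and Kcnj13 not well above background in either comparison and Aqp1 not in WR. These 3 had means above 0 in WR (0.43, 0.28 and 0.04). Ttr, the defining transcript of that epithelium, was called lower in WR (-0.72 and -0.99) and was at 0.20 and 0.04 in RWR. Of 6 pituitary genes, Prl and Tshb were not well above background on all chips. Prl met the call rule in RWR (-1.47 and -0.94) and passed the fold cutoff alone in WR (-1.52 and -0.44), and the other 5 were not called. For the 6 together, the summed signals, sedentary against running, were 804 and 784 against 806 and 715 in WR and 898 and 922 against 932 and 913 in RWR. The part of these cell types in the values of Nes and the other markers was not tested.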

How the data were processed

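Hippocampal RNA of sedentary, WR and RWR rats was measured on 4 chips of a rat 4x44K oligo array in 2 colours. The labels of the 2 dyes gave the groups. The authors extracted signals with Agilent Feature Extraction 11.0.1.1, with background subtraction and LOWESS dye normalization. Each deposited spot has a processed signal (an intensity), a log10 ratio (Cy5 to Cy3) and an error-model p-value of that chip. The authors' series matrix holds the same log10 ratios, which matched within 0.0001 at 100% of spots with a ratio other than 0. The deposited flags mark outlier spots and spots well above background.

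Each chip held 43379 noncontrol spots of 41012 probes, between 118 and 140 of which were left out as outliers, 2 or 3 of them spots of the markers. No spot was saturated, and between 67.5% and 82.5% of spots per dye and chip were well above background. The number of chips limits the precision. Log2 ratios were signed so that positive values are higher in running rats, spots of a probe were averaged, and the median of their p-values was taken. Probes were named by their accession, without version, through the RefSeq table of the GRCr8 assembly (the array was designed on rn4), used for names only, and 30244 probes stayed unnamed.

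No test between groups was run, since RNA was pooled within groups and the chips of a pair are dye swaps. The alternatives were no p-value filter, cutoffs of 1.5-fold in either direction, normexp (offset 50) or no background correction with loess in limma 3.58.1 (R 4.3.3), median centring, a filter on dim probes, the series matrix values, the median over a gene's probes and each chip left out. The call rule was tested on simulated data. Every probe of the 10 markers is described, and from each of the 4 wider gene lists and comparisons those among the 3 highest and 3 lowest on one side of 0 on both chips, of which some are not reported here. The markers and lists were chosen with earlier results of these data known. Plots were made in Python 3.11.15 with matplotlib 3.10.9.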

Additional observations from a re-analysis of the deposited data

Results flagged for a closer look

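The values of 3 marker probes lay on 1 side of 0 on both WR chips and on the other side on both RWR chips. The difference RWR minus WR on the log2 scale was 0.257 at Nes probe 1, 0.236 at Nes probe 2 and -0.140 at Map2 probe 1. The 3 probes stand for 2 genes, and these differences were not tested. Of the 24955 probes well above background on all chips, 4.62% had the same property. With normexp or no background correction the difference at Nes probe 2 was 0.080 and 0.086, and without correction its RWR chips no longer lay on the same side. Map2 probe 1 lost the property with both. Probe 2 of Map2 did not share it, with a difference of 0.02 ± 0.08.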

How the results depend on the processing

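The count of markers called was 0 in WR under every alternative, and 0 in RWR under every alternative but 1: with chip 3 alone (chip 4 left out) 1 marker, Mapt, was called lower, so the counts over left-out chips ranged from 0 to 1 in RWR. On chip 4, the other chip of that pair, Mapt was higher. The counts of markers on the same side of 0 on both chips (4 in WR and 4 in RWR) were 3 or 4 under every alternative that uses both chips. The median log2 ratio over the markers lay between -0.11 and 0.04 in WR and between -0.05 and 0.07 in RWR when single chips were used, and its sign therefore depended on the chip.

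For RWR minus WR, normexp correction and no background correction gave 0.19 and 0.18 for Nes in place of 0.26, 0.075 and 0.083 for Neurod1 in place of 0.05, -0.099 and -0.094 for Map2 in place of -0.14, and 0.13 and 0.039 for Sox11 in place of -0.12. The sign for Sox11, at its low signal, thus changed with both. The median over the probes of a gene gave -0.060 for Map2 and -0.10 for Stmn1 (in place of -0.05). The cause was not tested, except that this median includes the second probe. With these corrections Map2 probe 1 was no longer on 1 side of 0 on both chips in either comparison. Subtracting the median of all probes and using the series matrix kept the sign of 14 of 14 probe values in each comparison, normexp kept 13 of 14 in each, and no background correction kept 14 in WR and 13 in RWR.

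No paired analysis was possible because the chips of a pair hold the same pools, and no test was run. What limits the values is the pooling of RNA within groups, and for Sox11 also a signal close to background.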
